A study of Rattus norvegicus with 14 samples.

Results

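The proteasome subunit genes were taken as every listed symbol that starts with Psma, Psmb, Psmc, Psmd or Psme and a number, apart from Psmc3ip, whose normalized counts averaged 10 or more in at least 1 of the cultures. Of 43 such symbols, 42 met the minimum, and Psmb11, the thymus-specific catalytic subunit, was left out because it lay under 10 in both cultures. These 42 genes stand beside 15314 genes tested in neurons and 15380 in astrocytes, and all 42 passed the minimum in each culture.

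RNA had been sequenced from primary hippocampal neurons and astrocytes of embryonic day 18 Sprague Dawley rats. Both were kept in Aging Model (AM) medium, which by the study's methods had less supplement for neurons and charcoal-stripped serum for astrocytes and stood for an aging condition in embryonic cells. Neurons had 4 h in AM medium and then 16 h with vehicle, 0.001% ethanol (AM-Veh), or with 100 nM allopregnanolone (AM-Allo), the neurosteroid made from progesterone. Astrocytes had 24 h in AM medium and then 24 h with the same agents. There were 4 libraries per neuron group, numbered 1-1, 1-2, 2-1 and 2-2, and 3 libraries per astrocyte group, and all 14 libraries were used. The labels do not say whether libraries of a group came from separate cultures, so p-values measure only the spread between these libraries. A normalized count is the estimated number of reads of a gene divided by a factor for its library. From the steps between low values, reads per library were put at about 19700000 to 25100000 in neurons and 22200000 to 28400000 in astrocytes. The highest estimate was that of astrocyte AM-Allo 3, where only 65% of low values lay within 0.15 of a whole number of reads. For AM-Allo 2 it was 68.4%, against 81.2% to 93.4% in the other libraries, so these estimates are less certain.

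The proteasome is the barrel-shaped protease that degrades ubiquitin-tagged proteins in every cell. Its core particle is built from rings of alpha subunits, which form the gate, and rings of beta subunits, of which Psmb5, Psmb6 and Psmb7 carry the catalytic sites. The regulatory particle caps the core: its ATPases (Psmc genes) unfold substrates and its non-ATPase subunits (most Psmd genes) bind ubiquitin and remove it. Interferon can exchange the catalytic subunits for Psmb8, Psmb9 and Psmb10, which makes the immunoproteasome, and Psme1 and Psme2 form PA28, an alternative cap that is also interferon-inducible. In the brain the immunoproteasome is known mainly from glia, while neurons rely on the constitutive form. The 42 genes fell into 8 alpha ring, 7 beta ring, 3 immunoproteasome, 6 ATPase and 11 non-ATPase genes, 3 assembly chaperones that carry a Psmd symbol and 4 activators.

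The cultures were checked against cell type markers. In AM-Veh, Tubb3 (neuronal tubulin) stood at 407 CPM, normalized counts per 1000000 of the counts on genes listed for both cultures, in neuron cultures and 1.35 in astrocyte cultures, and Rbfox3 (the neuronal nuclear protein NeuN) at 21.2 and 0.0194. Syt1 (185 and 0.997) and Map2 (1120 and 162) had the same order, while Stmn2 was higher in astrocyte cultures (428 and 914). Of 6 astrocyte markers, Gfap (4250 CPM in neuron cultures and 5700 in astrocyte cultures) and Aqp4 (1170 and 1370) were lower in neuron cultures. The other 4 were higher there, namely Slc1a3 (2720 and 1890), S100b (781 and 200), Slc1a2 (113 and 7.57) and Aldh1l1 (23.4 and 15.6). Levels in the neuron cultures are therefore those of cultures rich in astrocyte markers. In bulk RNA, fewer cells of a type and less RNA per cell cannot be told apart. Neuron libraries separated by the first part of their number along the leading principal component (31.9% of variance), and astrocyte library AM-Allo 3 stood apart along that of its culture (29.9%).

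The upstream sequences of Psmb8, Psmb9, Psmb10, Psme1 and Psme2 are shown because these are the interferon-inducible members, of which all but Psmb10 were higher in astrocytes, against the order of the core genes. Each is the 250 bases before the start that the RefSeq promoter table gives, on the gene's strand, 5′ to 3′, in GRCr8, another assembly than the authors' Ensembl annotation. The RefSeq gene record can begin farther upstream than that start: the Psme2 window lies wholly inside the gene record, and 48 bases of the Psmb9, 18 of the Psmb8 and 9 of the Psme1 window do. Among the 38 members with such a window, 15 windows reached into the gene record and 6 lay wholly inside it. Capitals mark matches, on either strand, to the core of the interferon-stimulated response element (GAAANNGAAA) or of the gamma-activated sequence (TTCNNNGAA), motifs that were chosen after the levels had been seen. Psmb8 lies at chr20:4657032-4657281 (minus strand) and Psmb9 at chr20:4668750-4668999 (plus strand), with 11902 bases between the genes. Psmb10 lies at chr19:50743293-50743542 (minus strand). Psme1 lies at chr15:33038721-33038970 (plus strand) and Psme2 at chr15:33052752-33053001 (minus strand), with 6602 bases between the genes.
Psmb8: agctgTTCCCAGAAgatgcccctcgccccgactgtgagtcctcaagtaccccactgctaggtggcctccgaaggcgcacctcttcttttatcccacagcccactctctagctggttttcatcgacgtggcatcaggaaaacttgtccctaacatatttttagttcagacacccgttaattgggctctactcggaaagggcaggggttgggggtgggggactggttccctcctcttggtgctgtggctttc
Psmb9: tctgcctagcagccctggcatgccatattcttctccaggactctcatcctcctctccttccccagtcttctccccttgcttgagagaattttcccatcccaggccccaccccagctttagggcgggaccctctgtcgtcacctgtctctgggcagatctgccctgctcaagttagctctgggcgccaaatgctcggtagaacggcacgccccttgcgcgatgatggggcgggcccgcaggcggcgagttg
Psmb10: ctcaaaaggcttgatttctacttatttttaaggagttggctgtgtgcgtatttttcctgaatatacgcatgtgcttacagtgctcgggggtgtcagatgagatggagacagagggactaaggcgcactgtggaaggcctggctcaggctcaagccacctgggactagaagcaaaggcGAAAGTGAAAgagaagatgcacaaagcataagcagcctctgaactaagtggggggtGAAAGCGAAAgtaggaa
Psme1: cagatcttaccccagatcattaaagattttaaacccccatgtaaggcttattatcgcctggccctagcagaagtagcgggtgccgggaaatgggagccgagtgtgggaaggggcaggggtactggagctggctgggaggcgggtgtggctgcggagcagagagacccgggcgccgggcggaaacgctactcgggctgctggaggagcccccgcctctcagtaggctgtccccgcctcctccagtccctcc
Psme2: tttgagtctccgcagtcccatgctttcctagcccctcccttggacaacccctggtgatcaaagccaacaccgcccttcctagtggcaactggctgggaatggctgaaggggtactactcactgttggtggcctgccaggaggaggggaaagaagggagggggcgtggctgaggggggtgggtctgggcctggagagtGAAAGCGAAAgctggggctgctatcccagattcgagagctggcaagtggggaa

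Psmb10 held 2 matches to the interferon-stimulated core and Psme2 held 1, while Psmb8 held 1 match to the palindromic gamma-activated core and Psmb9 and Psme1 held none in these windows. Promoters were matched for 38 of the 42 members, Psma7, Psmd6, Psmd12 and Psmd14 being without an entry. The interferon-stimulated core was found in 5 of the 38 (13.2%) and in 3.29% of all 27457 promoters, the other 3 being the constitutive Psma4, Psmb3 and Psmd7. The gamma-activated core was found in 4 (10.5%) and in 7.52% of all, the other 3 being the constitutive Psmc6, Psmd3 and Psmd7. The antioxidant response element core (TGANNNNGC), the site type bound by NFE2L1 and NFE2L2, was found before 16 of the 38 (42.1%) and in 34.6% of all promoters. The CCAAT box (CCAAT) was found in 18 (47.4%) against 34.3%. The palindromic motif (GCGCATGCGC) of NRF1, here nuclear respiratory factor 1 (gene Nrf1) and not NFE2L1, was found in Psma2 alone (2.63%) against 0.849%. A match is a description of the letters and not a bound site.

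The first question was how each gene stood in the 2 cultures. Their tables had been normalized separately, so values were set side by side in CPM over the 18238 genes listed in both, and no test was run between cultures. Genes of the constitutive core and of the regulatory particle were higher in neuron cultures. All 31 (Psma8 apart) had a lower mean in astrocyte AM-Veh than in neuron AM-Veh, with a median ratio of 0.591 (range 0.446 to 0.973), where the median over all 14385 genes tested in both was 0.931 and 55.1% of genes were lower in astrocytes. Of the 42 members, 34 were higher in neurons in every one of the 14 libraries, AM-Allo included, 5 were higher in astrocytes in every library and 3 overlapped. Over all genes tested, 40.2% were higher in neurons in every library and 30.6% were higher in astrocytes.

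**Figure D1:**
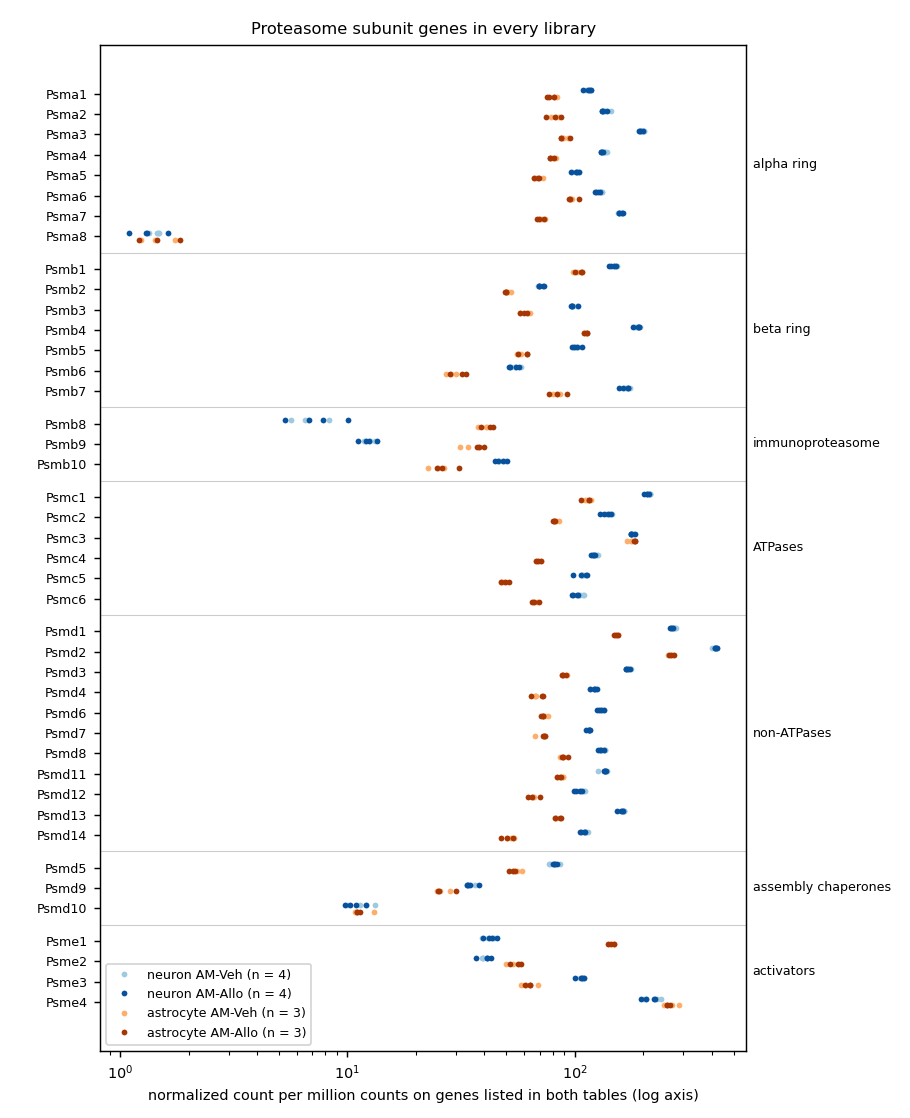
CPM over genes listed in both tables (log axis) for the 42 genes, by group, with 1 point per library (4 per neuron group in blue, 3 per astrocyte group in orange). Core and regulatory particle genes lie to the right in neurons, while Psmb8, Psmb9, Psme1, Psme2 and Psme4 lie to the right in astrocytes.

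Within the alpha ring, which gates the core, the astrocyte to neuron ratio ran from 0.453 for Psma3 (90.2 ± 2.55 CPM, SD, n = 3, in astrocytes and 199 ± 4.52, n = 4, in neurons) to 0.734 for Psma6. Psma8, the testis-enriched alternative to Psma7, was low in both cultures, at 1.47 and 1.44 CPM, and overlapped between them. The 7 constitutive beta genes ran from 0.493 for Psmb7, the trypsin-like catalytic subunit, to 0.735 for Psmb2. The 11 non-ATPase genes ran from 0.466 for Psmd14, the deubiquitinase of the lid, to 0.658 for Psmd8. Apart from Psma8, every gene of these 3 groups was higher in neurons in every library.

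The 6 ATPases were less alike. Psmc5 had the lowest ratio of all members, 0.446, at 48.4 ± 1.27 CPM (n = 3) in astrocytes and 109 ± 1.42 (n = 4) in neurons. Psmc3, another ATPase of the base, stood at 175 ± 4.09 and 180 ± 1.43 CPM, a ratio of 0.973, and its libraries overlapped. It was the only one of the 31 genes whose direction depended on the scaling, with a ratio of 1.05 under median-of-ratios scaling. That scaling moved the median ratio of all genes to 1.01 and that of the 31 genes to 0.637. The assembly chaperones Psmd5 and Psmd9, which help build the base, were lower in astrocytes in every library (0.694 and 0.762), and Psmd10, also known as gankyrin, was at 11.6 CPM in both.

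The immunoproteasome genes did not move together. Psmb8, which replaces Psmb5, stood at 39.7 ± 1.92 CPM (n = 3) in astrocytes and 6.78 ± 1.12 (n = 4) in neurons, a ratio of 5.86. Psmb9, which replaces Psmb6, stood at 34.3 ± 3.21 and 12.4 ± 0.667, a ratio of 2.77. Psmb10, which replaces Psmb7, went the other way, at 24.8 ± 1.99 in astrocytes and 47.6 ± 1.58 in neurons, a ratio of 0.521. That ratio was close to the 0.493 of its constitutive partner Psmb7. Psmb5 and Psmb6, the partners of the other two, had ratios of 0.562 and 0.52.

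Among activators, Psme1 stood at 146 ± 2.92 CPM in astrocytes and 41.8 ± 2.15 in neurons, a ratio of 3.49. Psme2, its partner in PA28, stood at 53.3 ± 3.37 and 39.8 ± 0.922, a smaller ratio of 1.34. Psme4, the nuclear activator PA200, had a ratio of 1.22, while Psme3, the interferon-independent PA28 gamma of the nucleus, had a ratio of 0.581. The 5 genes higher in astrocytes in every library were Psmb8, Psmb9, Psme1, Psme2 and Psme4.

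**Figure D2:**
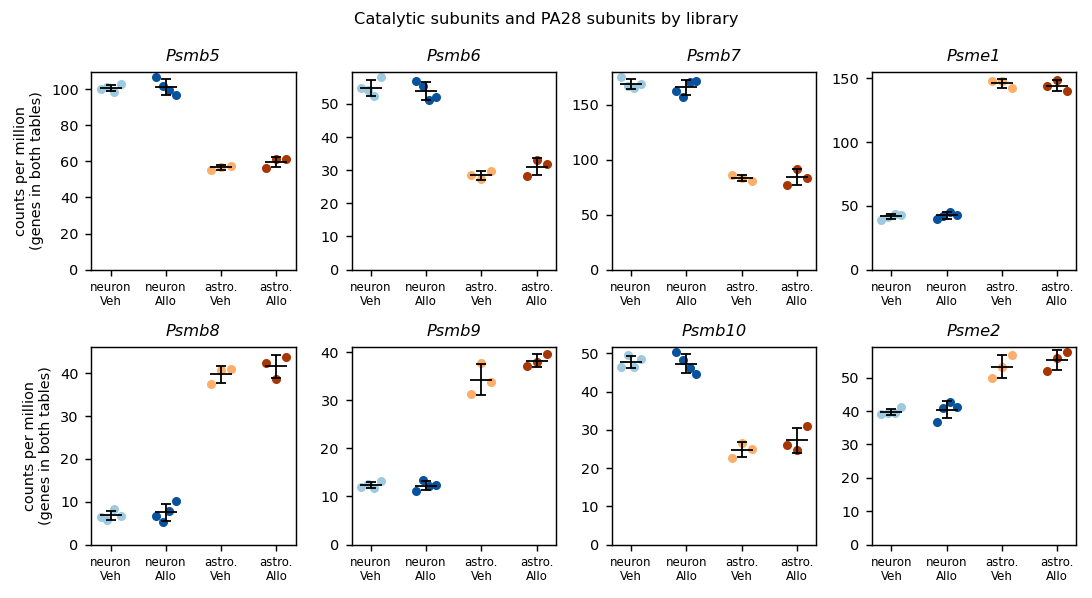
CPM over genes listed in both tables for the constitutive catalytic genes (Psmb5, Psmb6, Psmb7), the inducible genes that replace them (Psmb8, Psmb9, Psmb10) and the PA28 genes, with 1 point per library and the mean ± SD in black. Psmb8, Psmb9 and Psme1 are higher in astrocytes and Psmb10 is lower, and AM-Veh and AM-Allo overlap in every panel.

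The share of the inducible gene in each catalytic pair does not depend on the library's scaling. Transcript lengths were not used, so a share is compared between libraries and is not a share of molecules. Psmb8 made up 6.31% ± 1.04 (SD, n = 4) of the Psmb8 and Psmb5 counts in neuron AM-Veh and 41.2% ± 0.737 (n = 3) in astrocyte AM-Veh. The 4 neuron AM-Veh shares were 6.1%, 5.29%, 7.77% and 6.09%, and the 3 astrocyte shares were 40.4%, 41.8% and 41.5%, so the cultures were far apart. Psmb9 made up 18.4% ± 0.455 of the Psmb9 and Psmb6 counts in neurons and 54.6% ± 3.07 in astrocytes. Psmb10 made up 22% ± 0.841 of the Psmb10 and Psmb7 counts in neurons and 22.9% ± 1.74 in astrocytes, with overlapping libraries. With AM-Allo the shares were 6.91% ± 1.96, 18.6% ± 1.47 and 22.3% ± 1.56 in neurons and 41% ± 2.16, 55.2% ± 1.76 and 24.5% ± 2.96 in astrocytes, each overlapping its AM-Veh libraries.

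Other cell types differed between the cultures too. The 9 microglia markers summed to 97.9 to 163 normalized counts per neuron AM-Veh library and 1472 to 1881 per astrocyte AM-Veh library, with Itgam, Tyrobp, C1qa and C1qb not listed for neurons and all 9 past the minimum in astrocytes. The 5 mesenchymal markers summed to 622 to 1313 in neurons and 53054 to 61564 in astrocytes, but did not all go the same way. Col1a1 (10.2 CPM in neurons and 986 in astrocytes), Col1a2 (5.23 and 1250) and Pdgfrb (16.6 and 165) were higher in astrocytes. Dcn (8.28 and 0.246) and Lum (0.54 and 0.34) were higher in neurons. The 6 oligodendrocyte markers each had a higher mean in neuron AM-Veh. They summed to 35854 to 40132 in neurons and 3245 to 3393 in astrocytes. The part of these cell types in the higher Psmb8, Psmb9 and Psme1 of astrocytes was not tested. Nor was their part in the higher core and regulatory particle genes of neuron cultures. In the list of interferon response and antigen presentation genes, every gene but Nlrc5 had a higher mean in astrocyte AM-Veh, with Irf1, a transcription factor of the immunoproteasome genes, at 54.5 CPM against 16.4 in neurons. Nfe2l1 and Nfe2l2, transcription factors of the proteasome genes, stood at 191 and 249 CPM in astrocytes and at 142 and 134 in neurons. Of the other transcription genes counted below, Ngly1 (52.1 in astrocytes and 41.1 in neurons), Maff (31.3 and 2.6) and Mafk (45.4 and 16.8) were also higher in astrocytes. Ddi2 (47.9 and 77.3) and Mafg (24.7 and 35.4) were higher in neurons, the order of the core genes. Their part in the members' levels was not tested.

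The next question was what Allo did to these genes in neurons. No member passed an adjusted p of 0.05 in limma, where 4 of the 15314 genes did (0.0261%), and the lowest adjusted p among members was 0.781. Of the 42 members, 13 had a positive and 29 a negative log2 fold change, with a median of −0.024 (range −0.12 to 0.12) beside −0.0015 over all genes. At an unadjusted p under 0.05, 0 members were higher and 1 was lower, where 3.21% and 2.48% of all genes were. Without AM-Veh 1-1, AM-Veh 2-1 or AM-Allo 1-2 the lower count was 0. On the deposited variance-stabilized values, in which the mean difference between libraries numbered 1-1 or 1-2 and those numbered 2-1 or 2-2 was absent, it was 6 (Psma4, Psma6, Psmc6, Psmd1, Psmd12 and Psmd14), where 6.93% of all genes were lower, and 0 members were higher, where 7.46% were. With the first number as a block on those values the counts were 4 lower (5.26% of all genes) and 0 higher (5.81%), and 0 passed adjustment in either fit. The values of AM-Veh and AM-Allo did not overlap for 3 members, all lower in AM-Allo (1.89% of all genes), and for 0 members in the higher direction (2.06%). The half-width of the 95% interval had a median of 0.076 on the log2 scale over the members and reached 0.42 for Psmb8.

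By role, the alpha ring had 2 positive and 6 negative changes (median −0.03), the beta ring 3 and 4 (median −0.0057) and the non-ATPases 3 and 8 (median −0.026). All 6 ATPases were negative, between −0.091 and −0.014, and 1 of them passed the unadjusted threshold. The assembly chaperones had 2 positive and 1 negative change, the activators 2 and 2, and the immunoproteasome genes 1 and 2. Summed over the 31 core and regulatory particle genes, AM-Veh libraries 1-1, 1-2, 2-1 and 2-2 held 4574, 4529, 4557 and 4573 CPM and the AM-Allo libraries 4534, 4486, 4489 and 4440. The groups overlapped, and the sum was lower in AM-Allo within each of the 4 replicate numbers. The sum over all 42 members ran from 5115 to 5207 CPM in AM-Veh and from 5043 to 5108 in AM-Allo, and that of the non-ATPases from 1870 to 1887 and from 1844 to 1857, without overlap. The sums of the alpha ring, beta ring, ATPase, immunoproteasome, assembly chaperone and activator genes overlapped between AM-Veh and AM-Allo. These sums are given as a description, with no test and no share for sums of other genes beside them.

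**Figure D3:**
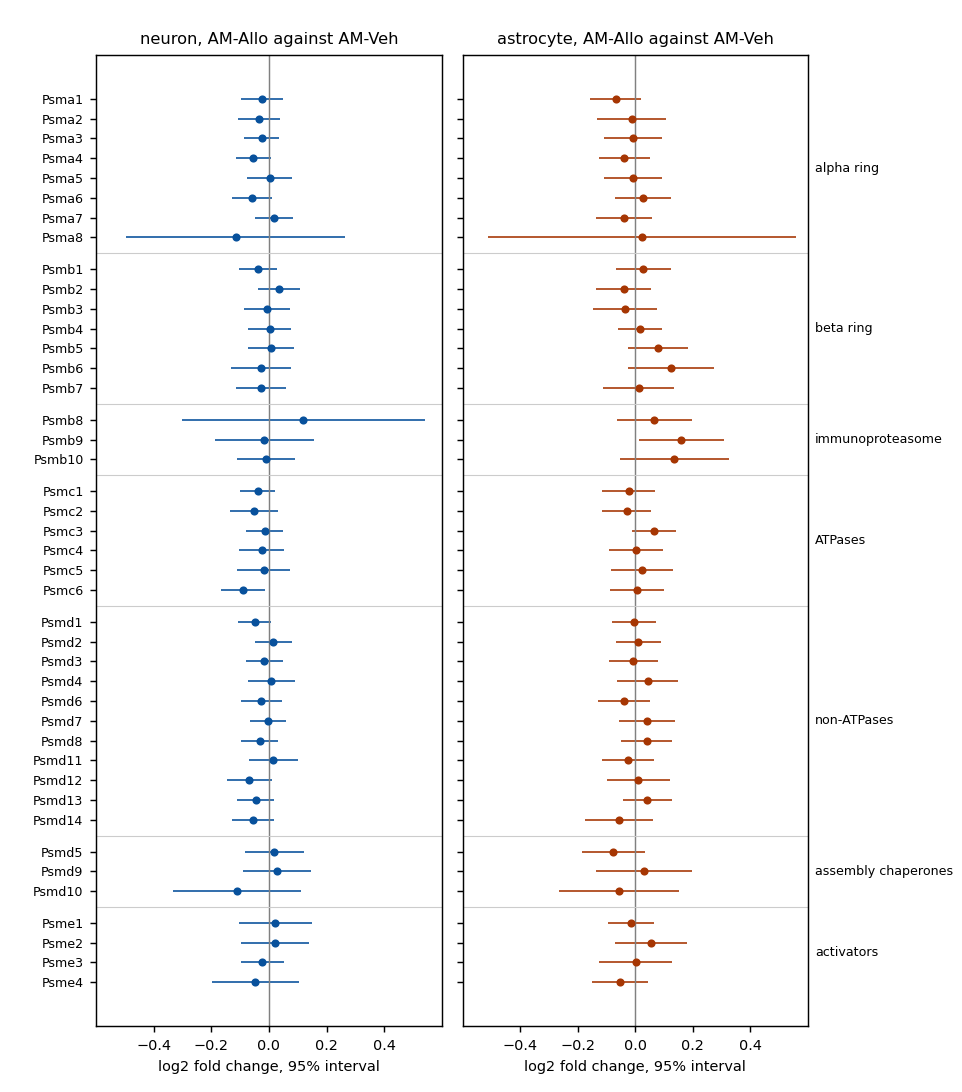
Log2 fold change of AM-Allo against AM-Veh for the 42 genes in neurons (left, 4 libraries per group) and astrocytes (right, 3 per group), with the 95% interval from limma as bars. The interval of Psmc6 lies below 0 in neurons and that of Psmb9 above 0 in astrocytes, and the other 40 genes have intervals that hold 0 in both cultures.

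Psmc6, an ATPase of the base, carried the largest shift of the ATPases. Its normalized counts in neuron AM-Veh were 2412, 2302, 2426 and 2319, and in AM-Allo 2255, 2166, 2287 and 2174. Every AM-Allo library lay below every AM-Veh library, and within each replicate number the AM-Allo value was lower. The log2 fold change was −0.091 (SE 0.034, a ratio of means of 0.939) with an adjusted p = 0.781 in limma, and an exact two-sided permutation test gave p = 0.0286, the smallest that 4 against 4 libraries allow. Any gene with separate groups gets that exact value, so it adds nothing to the separation. With the replicate number as a block the adjusted p was 0.263. Without AM-Veh 1-1, AM-Veh 2-1, AM-Allo 1-2 or AM-Allo 2-2 the unadjusted limma value for Psmc6 no longer passed 0.05, and 2 pseudogenes of it are annotated in rat, so its counts are less certain.

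Psma4, an alpha subunit, stood at 3028, 2945, 3026 and 3038 in AM-Veh and at 2926, 2859, 2909 and 2895 in AM-Allo. Psmd1, the large scaffold of the base, stood at 6116, 6015, 6094 and 6178 in AM-Veh and at 5790, 5946, 5875 and 5967 in AM-Allo. In both genes all AM-Allo values lay below all AM-Veh values, by a small margin. Their log2 fold changes were −0.055 (SE 0.028, adjusted p = 0.886) for Psma4 and −0.05 (SE 0.026, adjusted p = 0.892) for Psmd1. Each had an exact permutation p of 0.0286. Separate groups of 4 libraries always give that value, so it only restates the separation.

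The other genes with the largest shift of their group in neurons overlapped between the treatments. Psmd12, a lid scaffold, stood at 2424, 2341, 2479 and 2315 in AM-Veh and 2314, 2349, 2232 and 2224 in AM-Allo (log2 fold change −0.068, SE 0.035, adjusted p = 0.89). Psmb1, a non-catalytic beta subunit, stood at 3370, 3278, 3295 and 3367 in AM-Veh and 3327, 3263, 3159 and 3217 in AM-Allo (−0.038, SE 0.029, adjusted p = 0.976). Both had a lower mean in AM-Allo, and neither difference passed the test. Psmd10 stood at 290, 219, 251 and 271 in AM-Veh and 240, 265, 229 and 218 in AM-Allo (−0.11, SE 0.1). Psma8 stood at 31.8, 32.4, 33.3 and 30 and at 28.7, 29, 36.1 and 24.6 (−0.12, SE 0.17). For these low genes the spread within a treatment was as wide as the shift. Psme4 stood at 4440, 4537, 5129 and 5360 and at 4314, 4539, 4944 and 5016 (−0.047, SE 0.068), following the first number of the library more than the treatment. Markers of the cell types in the cultures also differed between the treatments. Of 5 neuron markers, Map2 (0.1, SE 0.033) and Tubb3 (0.21, SE 0.053) were higher in AM-Allo at an unadjusted p under 0.05 (lowest adjusted p = 0.539 in limma), Stmn2 was positive (0.14, SE 0.073), and Rbfox3 (−0.068, SE 0.082) and Syt1 (−0.077, SE 0.1) were negative. With the whole replicate number as a block, 3 neuron markers were higher and Tubb3 passed adjustment (adjusted p = 0.046 in limma). In that fit 4 of 6 oligodendrocyte markers were higher and Mbp passed adjustment (adjusted p = 0.0383 in limma). Of 6 astrocyte markers 1 was higher and 2 were lower, and 2 of 5 mesenchymal markers were higher. Over all genes 5.63% were higher and 5.04% lower at that unadjusted threshold. With the first number alone as a block (5.76% and 5.24% of all genes), 4 oligodendrocyte, 3 neuron, 1 astrocyte and 0 mesenchymal markers were higher. There 0 astrocyte markers were lower, Tubb3 passed adjustment (adjusted p = 0.044 in limma) and Mbp did not (0.0621). The part of culture composition in the members' values was not tested.

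The catalytic pairs and PA28 had overlapping treatments in neurons. Psmb5, the chymotrypsin-like subunit, stood at 2207, 2213, 2204 and 2303 in AM-Veh and 2353, 2248, 2207 and 2164 in AM-Allo (0.007, SE 0.035). Psmb8 stood at 143, 123, 186 and 149 in AM-Veh and 149, 117, 173 and 227 in AM-Allo (0.12, SE 0.19), the widest spread of the members. Its highest value came from AM-Allo 2-2. Psmb6, the caspase-like subunit, stood at 1204, 1194, 1167 and 1296 against 1251, 1218, 1135 and 1163, and Psmb9 at 261, 277, 264 and 295 against 245, 296, 268 and 277. Psmb7 stood at 3849, 3666, 3684 and 3772 against 3591, 3449, 3796 and 3856, and Psmb10 at 1017, 1087, 1035 and 1082 against 1109, 1063, 1024 and 998. Neither the inducible nor the constitutive genes had separate treatments. Psme1 stood at 856, 910, 979 and 960 against 872, 924, 1005 and 961, and Psme2 at 859, 868, 881 and 919 against 811, 903, 948 and 922, again overlapping.

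Neuron libraries with the same first number resembled each other across treatments, whether or not the second number matched. With the whole number as a block, 0 members were higher and 1 was lower at an unadjusted p under 0.05, beside 5.63% and 5.04% of all genes, and 0 passed adjustment, beside 0.607%. With the first number alone as a block, 0 were higher and 3 were lower (Psmc6, Psmd1 and Psma6), beside 5.76% and 5.24% of all genes, and 0 passed adjustment, beside 0.679% (lowest adjusted p = 0.289 in limma).

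In astrocytes the members' changes lay on both sides of 0. Again 0 members passed an adjusted p of 0.05, where 1 of the 15380 genes did (0.0065%), and the lowest adjusted p was 0.686. There were 23 positive and 19 negative changes, with a median of 0.0042 (range −0.076 to 0.16) beside 0.0014 over all genes. At an unadjusted p under 0.05, 1 member was higher and 0 were lower, where 3.72% and 3.29% of all genes were. The groups did not overlap for 1 member in the higher direction (6.42% of all genes) and for 1 in the lower direction (6.07%). The half-width of the 95% interval had a median of 0.098. The 3 immunoproteasome genes were all positive, the alpha ring had 2 positive and 6 negative changes, the beta ring 5 and 2, the ATPases 4 and 2 and the non-ATPases 6 and 5.

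Psmb9 was the member past the unadjusted threshold. Its counts were 745, 903 and 808 in astrocyte AM-Veh and 882, 904 and 952 in AM-Allo, so 1 AM-Veh library lay within the AM-Allo range. The log2 fold change was 0.16 (SE 0.068, a ratio of means of 1.11) with an adjusted p = 0.686, and the exact permutation test gave p = 0.2, where 3 against 3 libraries cannot go below 0.1. Without AM-Allo 3, the library that stood apart, the change was 0.13, and without AM-Veh 1 it was 0.094. In both cases it no longer passed the unadjusted threshold, nor did it without AM-Veh 3 or AM-Allo 2. Without AM-Allo 1, in contrast, 3 members were higher at that threshold, and without AM-Veh 2, 1 was lower. Of 6 astrocyte markers 2 were lower in AM-Allo at an unadjusted p under 0.05 (3.29% of all genes), and of 9 microglia markers 1 was. All 4 tested neuron markers were negative, and 1 of them, Map2 (−0.13, SE 0.052), was lower. Of these 3 lists 0 markers were higher (3.72% of all genes). The part of these cells in the members' values was not tested.

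Psmb8 stood at 892, 976 and 976 in AM-Veh and 1006, 923 and 1050 in AM-Allo (0.066, SE 0.061). Psmb10 stood at 539, 638 and 598 and at 620, 592 and 744 (0.14, SE 0.088), with the highest value in AM-Allo 3. Both overlapped between the treatments. Psmb5 stood at 1317, 1358 and 1376 and at 1345, 1466 and 1472 (0.079, SE 0.049), Psmb6 at 674, 651 and 714 and at 671, 791 and 765 (0.12, SE 0.07), and Psmb7 at 2040, 2005 and 1920 and at 1837, 2192 and 2000 (0.012, SE 0.057). Psme1 stood at 3504, 3532 and 3396 and at 3436, 3546 and 3356 (−0.013, SE 0.037), and Psme2 at 1186, 1273 and 1351 and at 1236, 1336 and 1382 (0.054, SE 0.058). The treatments overlapped for each of these, constitutive and inducible alike.

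Only Psmc3 and Psmb2 had separate groups in astrocytes. Psmc3 stood at 4048, 4227 and 4247 in AM-Veh and at 4318, 4362 and 4409 in AM-Allo (0.064, SE 0.035, adjusted p = 0.77). Psmb2 stood at 1197, 1253 and 1210 in AM-Veh and at 1184, 1181 and 1193 in AM-Allo (−0.04, SE 0.045, adjusted p = 0.9). Each had an exact permutation p of 0.1, the smallest possible, which separate groups of 3 libraries always give. Neither was separate in neurons, where Psmc3 ran from 3924 to 4060 in AM-Veh and from 3871 to 4068 in AM-Allo. The other largest shifts by group had overlapping treatments. Psma1 stood at 1924, 1940 and 1985 in AM-Veh and 1924, 1843 and 1814 in AM-Allo (−0.068, SE 0.041). Psmd14 stood at 1199, 1255 and 1288 and at 1122, 1204 and 1277 (−0.056, SE 0.055). Psmd5 stood at 1264, 1335 and 1400 and at 1294, 1219 and 1280 (−0.076, SE 0.05).

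**Figure D4:**
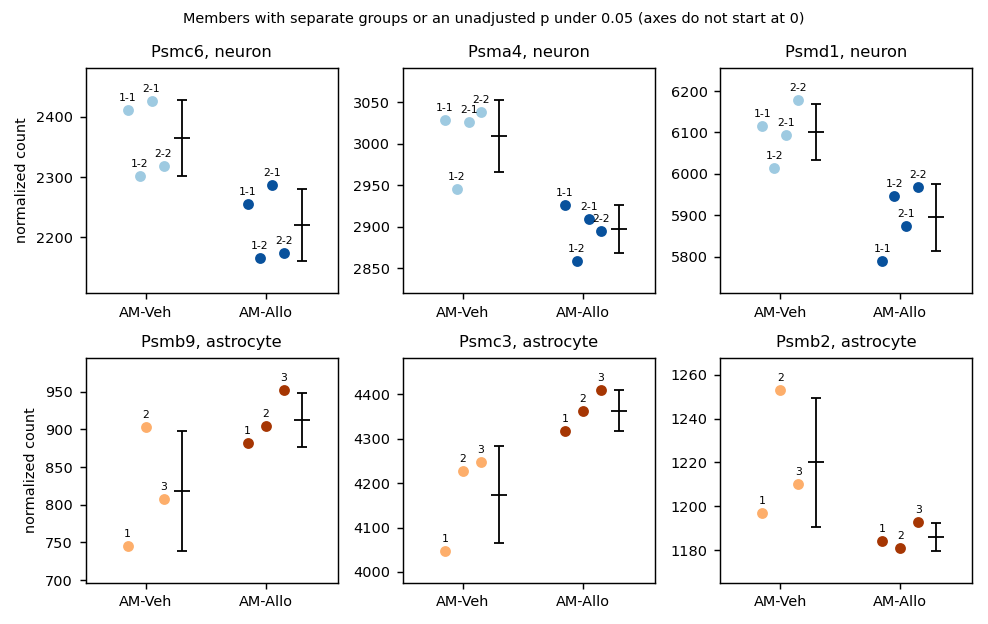
Normalized count in each library, labelled by its number, with the mean ± SD at the right of each group, for the members whose groups did not overlap or whose unadjusted p was under 0.05 (4 libraries per group in neurons, 3 in astrocytes). The axes do not start at 0, so the shifts, from 0.939 of the AM-Veh mean for Psmc6 to 1.11 for Psmb9, look larger than they are.

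The other genes of the pathway were counted from lists written with earlier results of these data known. Among 16 listed assembly factors and regulators, 0 changed in neurons at an unadjusted p under 0.05, or 1 (Ube3c, 0.079, SE 0.034, higher) with the whole-number block. In astrocytes 3 were higher (3.72% of all genes) and 0 lower (3.29%). The 3 were Psmg4, an assembly chaperone of the core (0.17, SE 0.075), Ube3c, a proteasome-bound ubiquitin ligase (0.16, SE 0.048), and Fbxo7, a binder of the proteasome inhibitor PI31 (0.2, SE 0.052). Their adjusted p-values in limma were 0.705, 0.488 and 0.394. In each of the 3, all astrocyte AM-Allo values lay above all AM-Veh values (6.42% of all genes). For Psmg1 (−0.068, SE 0.055), Psmg2 (−0.12, SE 0.075) and Akirin2 (−0.067, SE 0.042) they all lay below (6.07%). For Pomp, which matures the core, AM-Veh and AM-Allo overlapped in both cultures. Of 7 transcription genes, Nfe2l1 and Nfe2l2 among them, 0 changed in either culture, and of 11 ubiquitin and shuttle genes 0 changed in either.

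The 12 genes of the interferon response and antigen presentation were of interest beside Psmb9. In astrocytes all 12 had a positive log2 fold change (median 0.16) and 7 were higher at an unadjusted p under 0.05 (3.72% of all genes), with 0 past adjustment and a lowest adjusted p of 0.473. The 7 were Irf1 (0.26, SE 0.098), Tap1 (0.16, SE 0.059) and Tap2 (0.16, SE 0.053), which transport peptides, Tapbp (0.14, SE 0.052), Nlrc5 (0.39, SE 0.15), RT1-A2 (0.39, SE 0.11) and Stat2 (0.12, SE 0.049). The list summed to 38075, 38785 and 36600 counts in AM-Veh and to 38453, 40620 and 42547 in AM-Allo. AM-Allo 3 was the highest library, and without it 3 of the 12 were higher, and without AM-Veh 1 the number was 2. Microglia markers summed to 1472 to 1881 in AM-Veh and 1508 to 1627 in AM-Allo, and their part was not tested. In neurons 5 of the 12 were positive and 7 negative, and 1, Tapbp, was lower (−0.25, SE 0.098, adjusted p = 0.796), or 2, Tapbp and B2m, with the whole-number block (lowest adjusted p = 0.353 in limma).

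A larger difference among neuron libraries followed the first part of the replicate number, whose meaning the labels do not give. Across treatments, 4 members were higher in libraries 2-1 and 2-2 than in 1-1 and 1-2 at an adjusted p under 0.05 (9.61% of all genes) and 0 were lower (7.61%). At an unadjusted p, 6 were higher (15.3% of all genes) and 0 lower (14.1%). By either threshold, the share of the 42 members that was higher lay near that of all genes. Psme4 stood at 4440, 4537, 4314 and 4539 in libraries 1-1 and 1-2 and at 5129, 5360, 4944 and 5016 in 2-1 and 2-2 (a log2 difference of 0.2, SE 0.027, adjusted p = 0.00012). Psmb8 had means of 133 and 184 (0.45, SE 0.12, adjusted p = 0.0204), Psme1 of 890 and 976 (0.13, SE 0.041, adjusted p = 0.0343) and Psmd5 of 1733 and 1858 (0.1, SE 0.033, adjusted p = 0.0496). Of the 14 constitutive core genes, 7 had a positive and 7 a negative difference (median −0.00086) and 0 passed adjustment. Markers of other cells moved with the number as well. After adjustment 4 of 6 astrocyte markers and 1 of 5 neuron markers were higher in 2-1 and 2-2, and 0 of either were lower. Of 6 oligodendrocyte markers 5 were lower and 1 was higher, and of 5 mesenchymal markers 3 were lower and 1 was higher. Microglia markers summed to 89.6 to 109 counts in libraries 1-1 and 1-2 and 142 to 163 in 2-1 and 2-2. Most of that sum was Cd68, which averaged 108 in AM-Veh, beside Ptprc at 12, Csf1r at 3.58, Aif1 at 2.37 and Cx3cr1 at 2.02. Only 2 microglia markers were tested. The log2 difference was 0.86 for 1, which passed adjustment, and −0.06 for the other. The part of these cells in the members' differences was not tested. The number of members past adjustment was 1 without AM-Veh 2-1 and was 2 or 3 without any other library.

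**Figure D5:**
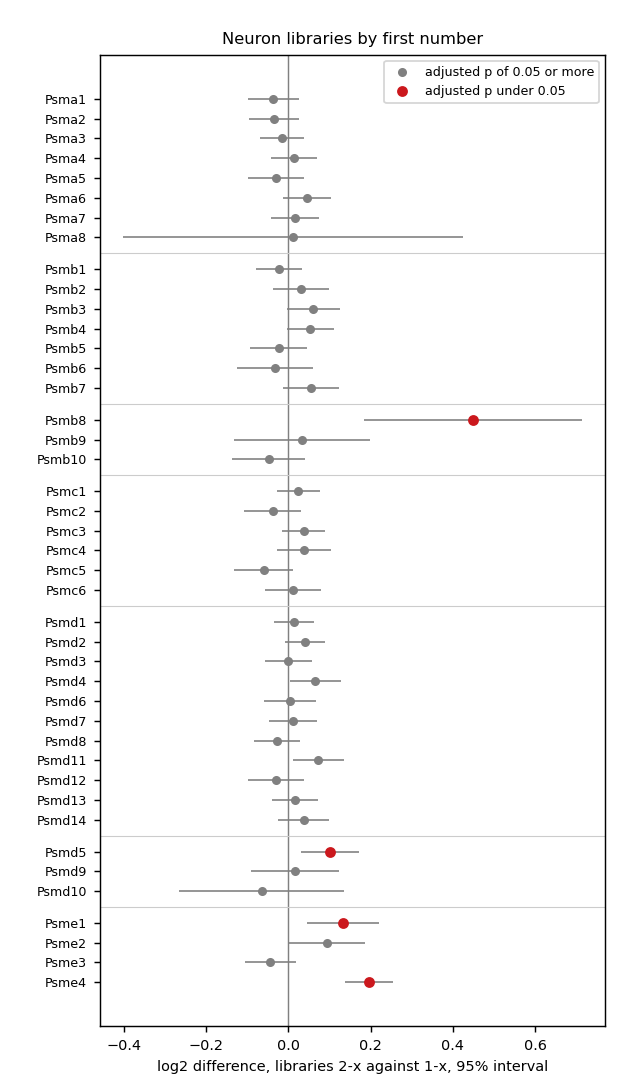
Log2 difference between neuron libraries 2-1 and 2-2 and libraries 1-1 and 1-2 (4 libraries each, treatment in the model) for the 42 genes, with 95% intervals. Psmb8, Psmd5, Psme1 and Psme4 (red) have an adjusted p under 0.05, and the 14 constitutive core genes lie between −0.036 and 0.061.

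Among libraries of one group the members were steady. Within AM-Veh the coefficient of variation had a median of 2.62% (range 0.889% to 17.2%) in neurons and 2.95% (range 0.241% to 17.6%) in astrocytes. The highest values were those of Psmb8 in neurons and of Psma8 in astrocytes. For 18 members RefSeq lists 49 named pseudogenes or similar copies, among them 10 of Psmb3, 5 of Psma6 and 3 each of Psmb6, Psme1 and Psme2. Reads of these members may have been split between copies when the authors quantified them, so their levels are less certain than those of members with no annotated copy, such as Psmb5, Psmb8, Psmb9 and Psmb10.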

How the data were processed

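Poly(A)-selected, stranded, paired-end RNA-seq libraries had been quantified by the authors with Salmon 0.14 against the Ensembl rat transcriptome and summarised per gene with tximport. The deposited signal values are normalized counts that the authors computed with DESeq2 1.18.1 in each culture separately. The log2-scale variance-stabilized values deposited by the authors served as an alternative only. In the deposited neuron variance-stabilized values the means of libraries numbered 1-x and 2-x were equal within 0.001 for 15314 of 15314 genes, against 96 in log2 normalized counts, so that difference had been removed there.

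Genes whose normalized counts averaged 10 or more were fitted per culture with limma 3.58.1 (R 4.3.3; lmFit, eBayes with trend, two-sided) on log2(normalized count + 1), and p-values were adjusted by Benjamini-Hochberg over all genes tested. Fold changes are on that scale, which understates those of low genes. Single members were also compared by exact permutation of mean log2 values. Because values were normalized, no count model was used. The scripts were tested on simulated data.

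Deviations from the group means correlated between treatments at 0.296, 0.229, 0.265 and 0.273 for neuron libraries of the same number. For libraries that shared only the first number they correlated at 0.185, 0.236, 0.211 and 0.196. Pairing by the whole number is therefore not clearly apart from grouping by the first number.

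Named with every library's value were the catalytic pairs, Psme1 and Psme2, members with an unadjusted p under 0.05 or separate treatments, and the member with the largest change of each group. The highest and lowest member per length were not named, since lengths were not used. The members and lists were chosen with earlier results of these data known.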

Additional observations from a re-analysis of the deposited data

Results flagged for a closer look

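In 5 of the 84 gene and treatment groups of 4 neuron libraries, 1 library stood far from the other 3, measured as its gap to the nearest library over the whole range of the group. Chance flags about 1 in 20 such groups. Psmd7 in AM-Veh 2-1 stood at 2593 against 2530 to 2535 (0.92 of the range). Psmb5 in AM-Veh 2-2 stood at 2303 against 2204 to 2213 (0.913). Psmb4 in AM-Allo 1-2 stood at 3972 against 4224 to 4254 (0.895). Psma4 in AM-Veh 1-2 stood at 2945 against 3026 to 3038 (0.872), and this lower AM-Veh library was still above every AM-Allo library. Psma2 in AM-Allo 1-1 stood at 3062 against 2913 to 2938 (0.831). The 5 values came from 5 libraries.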

How the results depend on the processing

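Of the alternatives, none turned the direction of a called value. The number of neuron members lower in AM-Allo (1) was 6 with variance-stabilized values (6.93% of all genes), 3 with a replicate block by first number (5.24%), 4 with both (5.26%, chosen after seeing the data) and 0 to 1 when each library was left out, while the number higher stayed 0. The whole-number block changed neither count. The median neuron change lay between −0.026 and −0.012 without each library. The number of astrocyte members higher (1) was 0 under upper-quartile scaling and 0 without the trend, and 0 to 3 without each library. The number lower (0) was 0 to 1, and the median lay between −0.0088 and 0.014. Same-numbered astrocyte libraries correlated at 0.024, −0.0070 and 0.012, so no pairing by number was seen, though 3 libraries per group cannot exclude it. A replicate block left 1 member higher and 0 lower. The interferon list, added after seeing the data, had 3 genes higher without the trend, 8 with the block, and 2 to 8 without each library. The number of members that differed by first number (4) was 2 under quantile normalization, 1 without the trend, and 1 to 3 without each library. It could not be tested on variance-stabilized values, which hold no such difference. The count of 34 members higher in neurons held without each library and under 3 other scalings, with core medians of 0.578 to 0.637. The cause of these shifts was not tested. With 3 or 4 libraries per group, small changes could be missed. The intervals given above hold the changes that the values allow, not the smallest change that would pass adjustment. Sequencing depth was estimated rather than deposited.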
